A study of Mus musculus with 10 samples.

Results

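The liver sinusoidal endothelial genes described here are Mrc1, Pecam1, Stab1, Stab2, Clec4g, Lyve1, Kdr, Cdh5, Fcgr2b and Oit3, 10 of the 54532 genes in the deposited count table, each matched by its symbol to 1 row. All 10 were among the 14244 genes that passed the filter on low counts and were tested. RNA sequencing of whole mouse liver compared 5 mice given napabucasin (BBI608), a naphthoquinone known as a blocker of STAT3 activity, with 5 mice given vehicle. Dosing was by daily gavage over 7 days, with 20 mg/kg napabucasin or with 1% NaCMC (sodium carboxymethyl cellulose) alone. The labels name no strain, sex, age or genetic change for either group. The stated aim was to find genes and pathways that respond to the compound in liver.

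Liver sinusoids are the capillaries of the liver, and their endothelium differs from that of most other vessels in having open pores and no continuous basement membrane. These cells are among the most active scavengers of the body: through endocytic receptors they remove waste glycoproteins, hyaluronan, collagen fragments and small immune complexes from blood. Several of the 10 genes are also used by other cells. Macrophages can express Mrc1, Stab1 and Fcgr2b, B cells express Fcgr2b, and platelets and leukocytes carry Pecam1. Lymphatic endothelium expresses Lyve1, and Kdr, Cdh5 and Pecam1 are genes of endothelium in general. Between these livers, though, Cdh5 varied with genes of Kupffer cells, the macrophages of the sinusoids (Pearson 0.94), as described further on.

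Promoter sequences were found for 6 of the 10 genes in the RefSeq table (GRCm38.p6): Mrc1, Stab1, Stab2, Clec4g, Kdr and Fcgr2b. The 4 below are shown because 3 of them (Stab1, Clec4g and Kdr) varied together between livers while Mrc1 varied apart from them, as described further on. Each line gives the 250 bases before the start annotated by RefSeq, 5′ to 3′ on the gene's strand. The deposited annotation starts earlier in a pair of these genes, so that the last 22 bases of the Mrc1 line and the last 3 of the Kdr line lie inside the deposited gene. Capitals mark the letters AGGAAG, a form of the site of ETS factors, or the same letters on the other strand, CTTCCT.
Mrc1 (chr2:14229164-14229413, plus strand): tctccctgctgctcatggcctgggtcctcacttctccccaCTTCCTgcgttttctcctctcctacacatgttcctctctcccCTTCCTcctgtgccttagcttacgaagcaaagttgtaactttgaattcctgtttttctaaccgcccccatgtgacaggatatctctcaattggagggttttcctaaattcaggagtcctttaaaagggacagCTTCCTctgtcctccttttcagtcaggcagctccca
Stab1 (chr14:31168642-31168891, minus strand): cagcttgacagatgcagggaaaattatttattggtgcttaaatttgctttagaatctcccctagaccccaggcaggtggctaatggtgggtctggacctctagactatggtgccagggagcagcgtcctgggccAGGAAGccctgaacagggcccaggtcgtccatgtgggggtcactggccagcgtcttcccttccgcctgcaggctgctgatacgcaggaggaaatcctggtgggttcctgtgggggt
Clec4g (chr8:3720652-3720901, minus strand): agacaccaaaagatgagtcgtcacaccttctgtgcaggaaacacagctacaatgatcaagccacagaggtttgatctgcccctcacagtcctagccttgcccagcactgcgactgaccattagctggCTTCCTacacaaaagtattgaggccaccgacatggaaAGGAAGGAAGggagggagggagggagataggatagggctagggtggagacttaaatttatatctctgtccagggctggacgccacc
Kdr (chr5:75978456-75978705, minus strand): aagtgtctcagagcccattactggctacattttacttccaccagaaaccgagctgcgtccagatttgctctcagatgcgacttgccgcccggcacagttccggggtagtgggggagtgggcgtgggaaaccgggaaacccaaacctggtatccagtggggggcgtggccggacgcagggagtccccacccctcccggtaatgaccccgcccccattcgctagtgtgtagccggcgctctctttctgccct

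The 6-letter motif was found in 4 of the 6 promoters, 3 times each in those of Mrc1 and Clec4g and 1 time each in those of Stab1 and Stab2, and was not found in those of Kdr and Fcgr2b. Of all 32851 promoter entries in the table, 29.5% hold it in a window of the same length. In Clec4g, 2 of the matches overlap. The last 83 bases of the Stab2 window, which hold its match, lie inside the deposited gene. The whole Fcgr2b window lies inside the deposited Fcgr2b gene, which starts earlier than the RefSeq start used here. The longer ETS form ACCGGAAG, the GATA forms AGATAA and TGATAA and the SOX form AACAAT were searched on both strands as well and were found in 0 of the 6. They occur in 1.72%, 9.99%, 7.94% and 9.42% of all entries. The Kdr window was the richest of the 6 in G and C, at 61.6%, and held 16 CG pairs, against 45.2% to 57.2% and 3 to 5 pairs in the other 5. Genes with and without a match were found in the set that varied together.

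Library totals were 14124484 to 17759967 counts. Albumin took 3.48% to 11.5% of the counts of a library, as a liver sample would show. Log2 fold changes, their standard errors (SE) and p-values are from edgeR's quasi-likelihood test over all genes tested, and adjusted p-values are by the Benjamini-Hochberg method. CPM are counts scaled to a common library total, with TMM library sizes (the trimmed mean of M values), and FPKM are the authors' values per kilobase of gene length. No library was set aside, but 2 kinds of departure bear on what follows. Vehicle replicates 3, 4 and 5 were the lowest libraries in 15 of 25 pan-endothelial genes, and vehicle replicate 1 and napabucasin replicate 5 were low in Kupffer cell genes. Whole liver was sequenced, so fewer cells of a type and less RNA per cell cannot be told apart.

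The 10 genes lay higher in napabucasin livers than in vehicle livers, but none passed the threshold. Mrc1, Kdr, Stab2 and Pecam1 showed the largest differences and Lyve1 the smallest. All 10 had a log2 fold change above 0, where 50.1% of all genes tested did. The median was 0.66 over the 10 genes and 0.00098 over all genes. At an adjusted p under 0.05 edgeR called 0 of the 10 and 0% of all genes. At an unadjusted p under 0.05 it gave 4 of the 10 as higher, against 9.34% of all genes, and 0 as lower, against 5.83%. In 0 of the 10 were all napabucasin livers above all vehicle livers, against 1.21% of all genes. With the replicate number as a block, 7 of the 10 were higher at an unadjusted p under 0.05, against 11.8% of all genes, and 0 passed after adjustment.

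**Figure D1:**
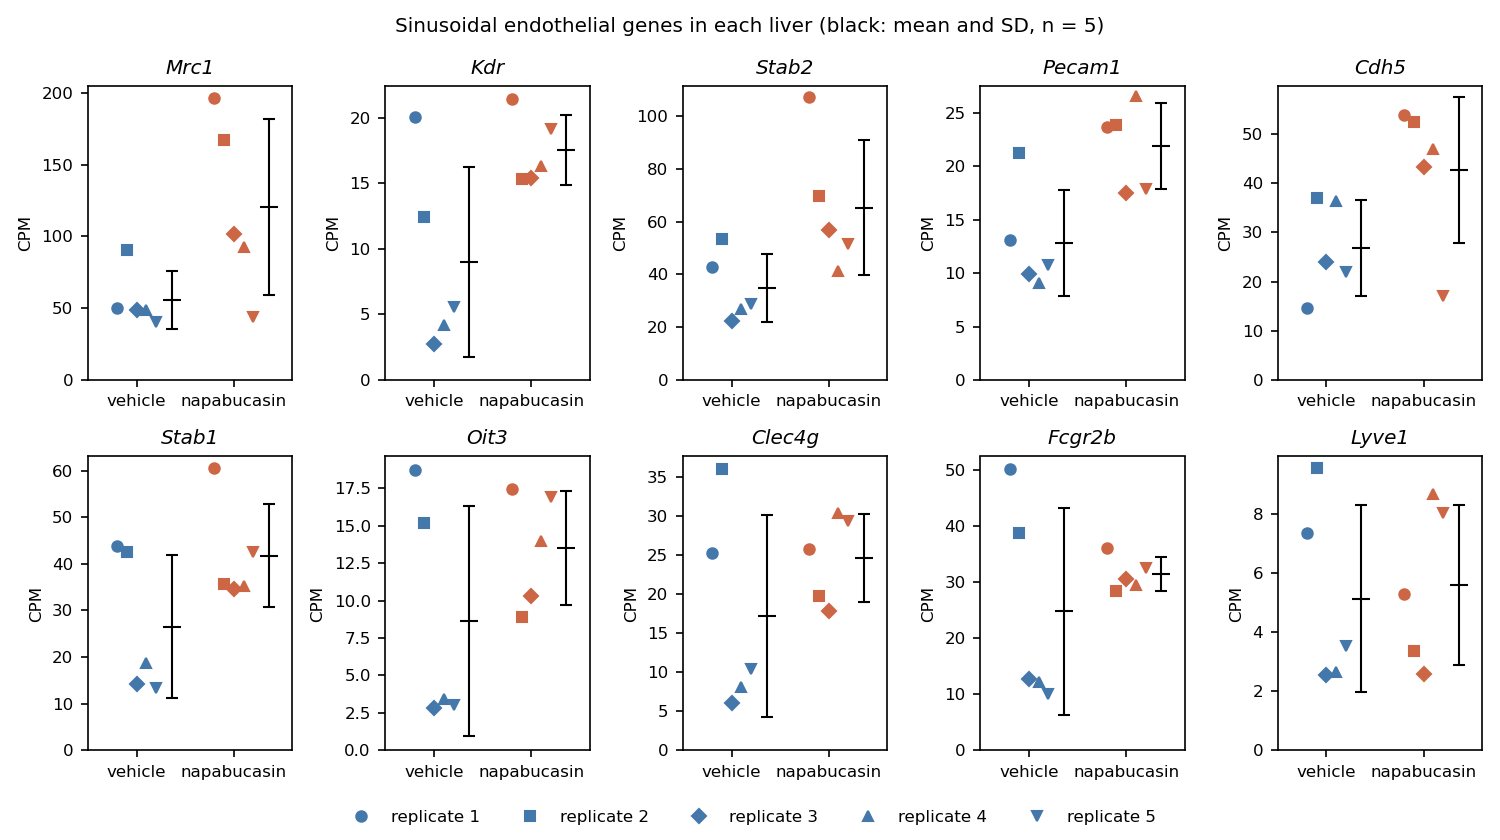
CPM of each gene (vertical axis, from 0) in the 5 vehicle and 5 napabucasin livers; each point is 1 library, its shape gives the replicate number, and black bars are the mean and SD (n = 5). In 7 of the 10 panels vehicle replicates 3, 4 and 5 are the lowest points, and no panel separates the groups.

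The scavenger receptors were measured most strongly through Mrc1, the mannose receptor, which takes up glycoproteins with exposed mannose and collagen chains (chromosome 2, 14229392 to 14332057, GRCm38). Mrc1 measured 50.3, 90.7, 48.6, 48.6 and 40.3 CPM in vehicle replicates 1 to 5 and 197, 168, 101, 92.8 and 44.1 CPM in napabucasin replicates 1 to 5. Of the napabucasin livers 4 lay above every vehicle liver, and replicate 5 lay within the vehicle range. The means were 55.7 ± 20.0 and 121 ± 61.2 CPM (SD, n = 5 each), and the log2 fold change from edgeR was 1.11 (SE 0.35, 95% interval 0.36 to 1.86, edgeR adjusted p = 0.235). Leaving out 1 library at a time gave 0.87 to 1.36, with an unadjusted p under 0.05 in all 10 fits.

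Stab2, a large scavenger receptor that clears hyaluronan from blood (chromosome 10, 86841198 to 87008025), measured 42.8, 53.4, 22.2, 26.7 and 28.9 CPM with vehicle and 107, 69.8, 56.8, 41.2 and 51.4 CPM after napabucasin. Vehicle replicates 3, 4 and 5 were the lowest of all livers, and 3 napabucasin livers lay above every vehicle liver. As a log2 fold change the difference was 0.91 (SE 0.29, edgeR adjusted p = 0.238). It had an unadjusted p under 0.05 in all 10 fits with 1 library left out.

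Stab1, the related receptor that endothelium shares with macrophages (chromosome 14, 31139013 to 31168641), measured 43.9, 42.6, 14.1, 18.8 and 13.3 CPM with vehicle and 60.5, 35.8, 34.6, 35.2 and 42.6 CPM after napabucasin. Vehicle replicates 1 and 2 lay among the napabucasin livers, and vehicle replicates 3, 4 and 5 lay below all of them. The log2 fold change was 0.65 (SE 0.34, edgeR adjusted p = 0.369). One end of Stab1 overlaps Nt5dc2 on the other strand, which held 646 counts over all libraries where Stab1 held 5697, and the strand setting of the counting is not given in the sources used here.

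Clec4g, a C-type lectin of sinusoidal endothelium also called LSECtin (chromosome 8, 3707064 to 3720651), measured 25.3, 36, 6.04, 8.15 and 10.5 CPM with vehicle and 25.8, 19.7, 17.9, 30.3 and 29.4 CPM after napabucasin. Its highest value was in vehicle replicate 2, and its 3 lowest were in vehicle replicates 3, 4 and 5. Napabucasin exceeded vehicle by 0.51 on the log2 scale (SE 0.41, edgeR adjusted p = 0.540).

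Fcgr2b, the inhibitory IgG receptor through which sinusoidal endothelium takes up small immune complexes (chromosome 1, 170958617 to 170976547), measured 50.3, 38.8, 12.8, 12.3 and 10.1 CPM with vehicle and 36.2, 28.5, 30.6, 29.5 and 32.5 CPM after napabucasin. The napabucasin livers fell inside the gap between vehicle replicates 1 and 2 above and vehicle replicates 3, 4 and 5 below. The means were 24.8 ± 18.5 and 31.4 ± 3.04 CPM (SD, n = 5 each), with a coefficient of variation of 74.3% in vehicle and 9.66% in napabucasin livers. The log2 fold change was 0.34 (SE 0.39, edgeR adjusted p = 0.670). Fcgr2b is close in sequence to the activating receptor Fcgr3, so reads could be shared between them. The part of shared reads was not tested. Fcgr3 measured 4.28, 42.8, 25.1, 22.6 and 20.4 CPM in vehicle replicates 1 to 5 and 38.4, 47.8, 48.3, 45.6 and 9.17 CPM in napabucasin replicates 1 to 5.

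Lyve1, which binds hyaluronan (chromosome 7, 110850607 to 110863239), measured 7.35, 9.55, 2.56, 2.64 and 3.52 CPM with vehicle and 5.30, 3.35, 2.60, 8.65 and 8.01 CPM after napabucasin. Both groups spanned nearly the same range. As a log2 fold change the difference was 0.12 (SE 0.43, 95% interval -0.81 to 1.04, edgeR adjusted p = 0.904). Its sign turned, to between -0.10 and -0.05, without vehicle replicate 3 or 4 or without napabucasin replicate 4 or 5. Its smallest count in a library was 36, the lowest of the 10 genes.

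Oit3, a liver protein with a zona pellucida domain (chromosome 10, 59422958 to 59441778), measured 18.7, 15.2, 2.84, 3.43 and 3.02 CPM with vehicle and 17.5, 8.93, 10.3, 14 and 16.9 CPM after napabucasin. The vehicle livers again fell into 2 high and 3 low values, with all napabucasin livers above the low ones. The coefficient of variation was 89.1% in vehicle, the largest of the 10 genes there, and 28.4% in napabucasin livers. The log2 fold change was 0.65 (SE 0.50, edgeR adjusted p = 0.524).

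Of the receptor and junction genes of endothelium in general, Kdr, the main signalling receptor for VEGF (chromosome 5, 75932827 to 75978458), showed the largest difference. It measured 20.1, 12.4, 2.77, 4.22 and 5.53 CPM with vehicle and 21.4, 15.4, 15.4, 16.3 and 19.2 CPM after napabucasin. Only vehicle replicate 1 reached the napabucasin range, and the other 4 vehicle livers lay below it. The means were 9.0 ± 7.22 and 17.5 ± 2.67 CPM (SD, n = 5 each), and the log2 fold change from edgeR was 0.97 (SE 0.42, edgeR adjusted p = 0.315). Without vehicle replicate 1 it was 1.46, and without vehicle replicate 3 it was 0.74. It had an unadjusted p under 0.05 in 5 of the 10 fits with 1 library left out.

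Pecam1, an adhesion molecule of endothelial junctions (chromosome 11, 106654217 to 106750628), measured 13.1, 21.3, 9.95, 9.10 and 10.8 CPM with vehicle and 23.7, 23.9, 17.5, 26.6 and 17.9 CPM after napabucasin. Only vehicle replicate 2 reached the napabucasin range. The means were 12.8 ± 4.94 and 21.9 ± 4.02 CPM (SD, n = 5 each), and the log2 fold change from edgeR was 0.77 (SE 0.24, edgeR adjusted p = 0.234). That was the smallest p of the 10 genes, and it stayed under 0.05 unadjusted in all 10 fits with 1 library left out.

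Cdh5, the cadherin of endothelial junctions (chromosome 8, 104101625 to 104144511), measured 14.6, 37.1, 24.0, 36.5 and 22.0 CPM with vehicle and 53.8, 52.4, 43.2, 47.1 and 17.1 CPM after napabucasin. Of the napabucasin livers 4 lay above every vehicle liver, while napabucasin replicate 5 was lower than 4 of the 5 vehicle livers. Its log2 fold change was 0.67 (SE 0.31, 95% interval -0.0004 to 1.33, edgeR adjusted p = 0.329). With group means removed, Cdh5 correlated at 0.94 with a score of Kupffer cell genes and at -0.16 with a pan-endothelial score, as described further on. Which cells carried its difference was not tested.

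**Figure D2:**
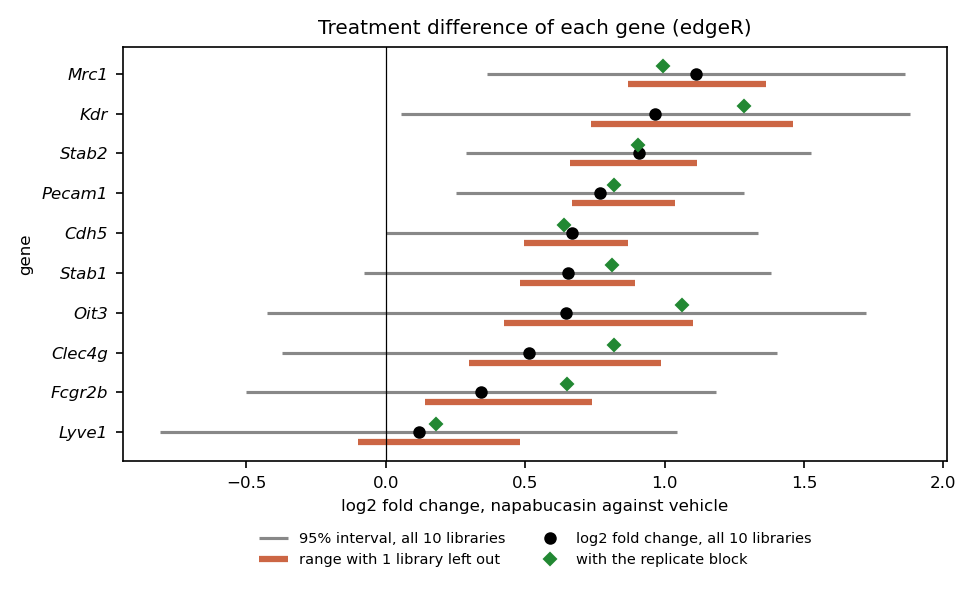
Log2 fold change of napabucasin against vehicle (horizontal axis) for each gene, with the 95% interval, the range over the 10 fits with 1 library left out, and the value with the replicate block. The intervals of Mrc1, Kdr, Stab2 and Pecam1 lie above 0, and only for Lyve1 does the range over those 10 fits cross 0.

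The calls depended on the tool. DESeq2 gave 5 of the 10 as higher at an unadjusted p under 0.05, against 5.94% of all genes, and 0 after adjustment, against 0.58%. Limma-voom with library quality weights gave 8, against 11.3%, and called 3 at an adjusted p under 0.05, against 0.688% of all genes. They were Kdr (log2 fold change 1.72, limma-voom adjusted p = 0.0299), Stab2 (1.00, limma-voom adjusted p = 0.0470) and Pecam1 (0.94, limma-voom adjusted p = 0.0471). Over the other alternatives the smallest adjusted p was 0.10 for Kdr, 0.0685 for Stab2 and 0.0921 for Pecam1, and over all 24 the largest were 0.656, 0.609 and 0.605. That method weighted vehicle replicates 1 and 2 at 0.556 and 0.534 and vehicle replicates 3, 4 and 5 at 1.63, 2.84 and 1.43, and among napabucasin libraries its weights ran from 0.307 for replicate 1 to 2.10 for replicate 3.

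Per kilobase of gene length, Mrc1 was the most abundant of the 10 genes in both groups, at 8.65 ± 3.00 FPKM in vehicle and 18.6 ± 9.35 FPKM in napabucasin livers (SD, n = 5 each). In vehicle livers Clec4g (6.90 ± 5.12), Cdh5 (6.34 ± 2.27), Fcgr2b (4.23 ± 3.10) and Stab2 (3.93 ± 1.41 FPKM) followed. Oit3 (3.05 ± 2.69), Stab1 (2.55 ± 1.45), Pecam1 (2.04 ± 0.76), Lyve1 (1.73 ± 1.05) and Kdr (0.98 ± 0.78 FPKM) were lower. No neighbours in that order differed by more than their spread, since the ranges of each pair overlapped. In napabucasin livers the order was Mrc1, Cdh5, Clec4g, Stab2, Fcgr2b, Oit3, Stab1, Pecam1, Kdr and Lyve1. There the ranges of neighbours overlapped in every pair but 1, Pecam1 at 3.47 ± 0.62 above Kdr at 1.92 ± 0.28 FPKM.

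Within the groups, most of the 10 genes varied together from liver to liver. Over the 45 pairs, the median Pearson correlation of log2 CPM with group means removed was 0.66 (10 libraries). It is a description of values that share libraries and normalization. Oit3 and Fcgr2b had the highest, 0.97 (Spearman 0.95), and Stab1, Clec4g and Kdr correlated with both at 0.85 or above. These correlations rested in part on vehicle replicates 3, 4 and 5: without them that of Oit3 with Fcgr2b was 0.72 (Spearman 0.79) over 7 libraries. Cdh5 stood apart, with correlations of -0.28 to 0.35 with 8 of the other 9 genes and 0.78 with Mrc1. Mrc1 in turn correlated at 0.70 with Stab2, 0.61 with Pecam1 and -0.03 to 0.41 with the remaining 6 genes.

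**Figure D3:**
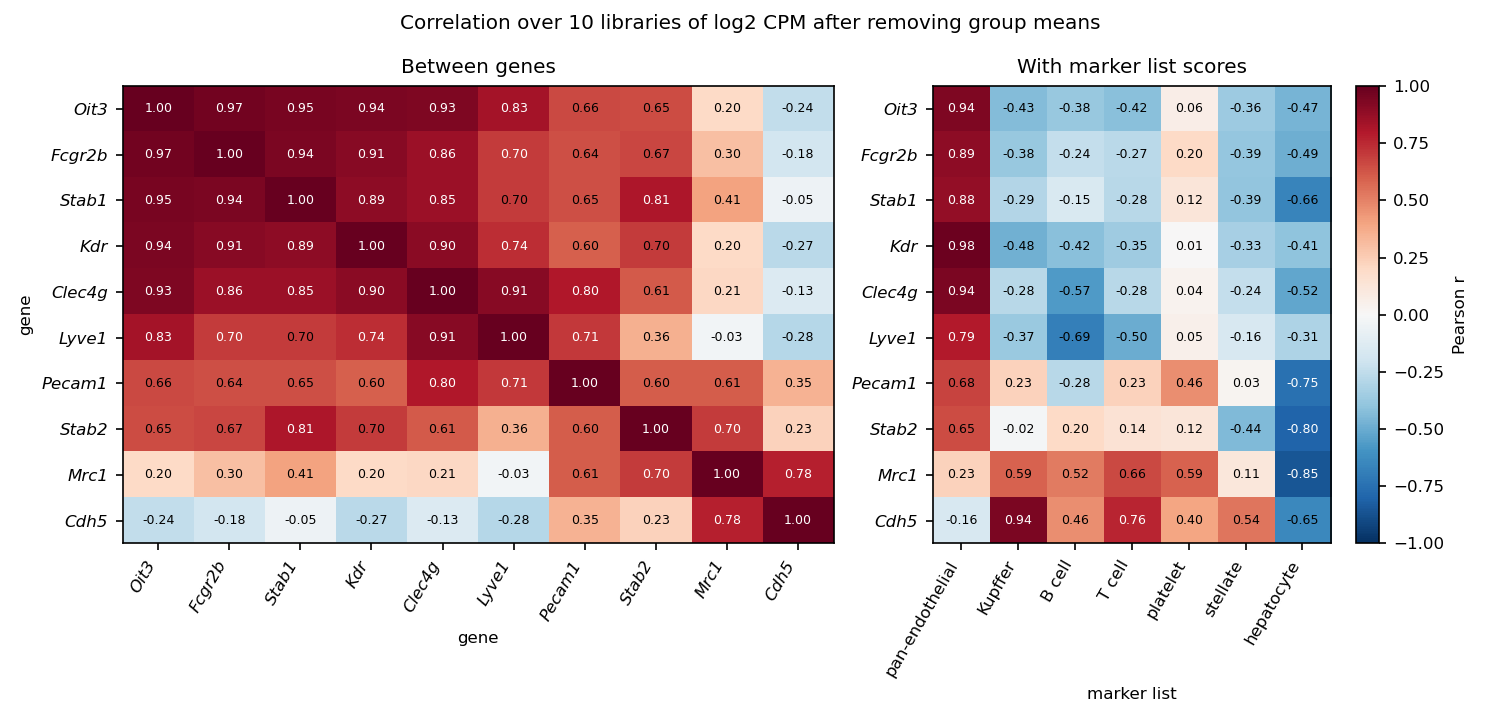
Pearson correlations over 10 libraries of log2 CPM after group means were removed, between the 10 genes (left) and of each gene with the scores of marker lists (right). Oit3, Fcgr2b, Stab1, Kdr and Clec4g form a block at 0.85 to 0.97, while Cdh5 correlates at 0.94 with the Kupffer cell score and at -0.16 with the pan-endothelial score.

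Marker lists showed the same division. A list score is the mean over its genes of log2 CPM, centred on the mean of all 10 libraries. For the correlations given here, group means were removed from the genes and from the scores. Kdr, Oit3, Clec4g, Fcgr2b, Stab1 and Lyve1 correlated at 0.79 to 0.98 with the score of 25 pan-endothelial genes, which holds none of the 10. For Kdr this was 0.98 (Spearman 0.95), and 0.78 (Spearman 0.68) without vehicle replicates 3, 4 and 5. For Clec4g it was 0.94 (Spearman 0.96), and 0.39 (Spearman 0.57) without those 3 libraries. Lyve1 had 0.79 with the pan-endothelial score and 0.80 with the score of 4 lymphatic genes, Flt4 among them. Pecam1 had 0.68 with the pan-endothelial and 0.78 with the lymphatic score. Cdh5 correlated at 0.94 (Spearman 0.85) with the score of 15 Kupffer cell genes, the resident macrophages of the sinusoids, and at -0.16 with the pan-endothelial score. Without vehicle replicate 1 and napabucasin replicate 5, the libraries with the lowest Kupffer scores (-1.88 and -1.07), it was 0.81 (Spearman 0.74). Cdh5 also correlated at 0.76 with the T cell and 0.73 with the recruited myeloid score. Mrc1 correlated at 0.59 with the Kupffer score, 0.66 with the T cell, 0.59 with the platelet and 0.52 with the B cell score. With the score of 12 hepatocyte genes Mrc1 correlated at -0.85 (Spearman -0.82) and Stab2 at -0.80 (Spearman -0.61). All 10 genes lay below 0 with the hepatocyte score, up to -0.31 for Lyve1, so its sign did not divide them.

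In 7 of the 10 genes, all but Mrc1, Cdh5 and Lyve1, vehicle replicates 3, 4 and 5 were the 3 lowest of the 10 libraries, a pattern chosen after the values were seen. Among all genes tested the share was 3.75%. It was met by 15 of 25 pan-endothelial genes, 8 of 15 other genes of sinusoidal endothelium, 5 of 17 endothelial transcription factors, 2 of 11 endothelial signals to neighbouring cells and 2 of 10 VEGF and angiopoietin genes. It was met by 1 of 11 genes of continuous or large vessel endothelium, 1 of 10 B cell genes, and 0 of 15 Kupffer, 0 of 10 stellate, 0 of 10 T cell and 0 of 12 hepatocyte genes. The lists share genes, so these counts are not separate. Flt1 is counted in both the pan-endothelial and the VEGF list. Flt4 is counted in both the VEGF and the other sinusoidal list, and Bmp2 in both the signal and the other sinusoidal list. The score of the 10 genes was 0.245, 0.512, -1.08, -0.841 and -0.886 in vehicle replicates 1 to 5 and 0.801, 0.357, 0.160, 0.467 and 0.265 in napabucasin replicates 1 to 5. The pan-endothelial score was 0.488, 0.245, -1.21, -0.685 and -0.575 in vehicle and 0.463, 0.230, 0.203, 0.480 and 0.365 in napabucasin livers. Vehicle replicates 1 and 2 had scores within or near the napabucasin range on both.

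**Figure D4:**
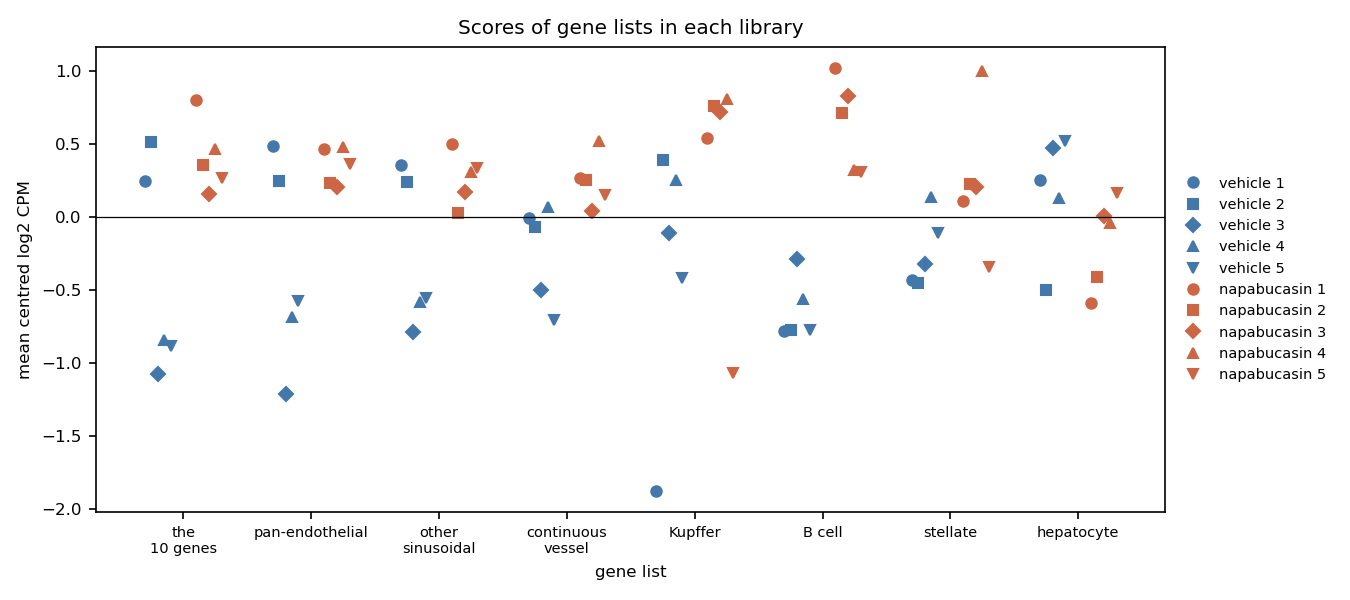
Score of each gene list, the mean centred log2 CPM of its genes (vertical axis), in each library; colour gives the group and shape the replicate number. Vehicle replicates 3, 4 and 5 are lowest in the 10 genes, the pan-endothelial and the other sinusoidal lists, and vehicle replicate 1 and napabucasin replicate 5 are lowest in the Kupffer list.

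Other genes known from sinusoidal endothelium lay higher in 12 of 15 tested, with a median log2 fold change of 0.49, 2 of them higher at an unadjusted p under 0.05 and 0 past the threshold. With 9.34% of all genes called higher in that way, 2 of 15 is near the background. Scarf1, a scavenger receptor of endothelium, measured 11.9 to 22.5 CPM with vehicle and 14 to 87.3 CPM after napabucasin (log2 fold change 1.35, edgeR adjusted p = 0.228). Ushbp1 had 1.13, the endocytic trafficking gene Ehd3 0.70 and endoglin (Eng), a co-receptor for BMP ligands, 0.53. On the lower side were Nrp1 (-0.46), Fcgrt (-0.21) and Cd36 (-0.17). Eng was highest in vehicle replicate 1, at 79.2 CPM, and lay at 26.5 to 33.8 CPM in vehicle replicates 3, 4 and 5. Of the 17 names on this list, Cd209b and Wnt2 did not pass the filter on low counts.

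Pan-endothelial genes lay higher in 23 of 25, with a median of 0.57 and 7 at an unadjusted p under 0.05, all higher, against 9.34% of all genes. Calcrl, a receptor for adrenomedullin, measured 9.40 ± 3.15 CPM with vehicle and 16.3 ± 4.09 CPM after napabucasin (SD, n = 5 each), for a log2 difference of 0.79 (edgeR adjusted p = 0.238). Lyl1, a transcription factor, had 1.15, the scaffold gene Shank3 1.20 and Ecscr 0.67. On the lower side were S1pr1 (-0.35) and Clec14a (-0.037). Endothelial transcription factors lay higher in 13 of 17, with 2 higher at an unadjusted p under 0.05, a share near the 9.34% of all genes. These were the ETS factor Fli1 (log2 fold change 0.91) and Lmo2 (0.86), both of which blood cells also express. Meis2 had 0.68 and Nr2f2, a factor of venous identity, -0.35.

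Of 10 tested VEGF and angiopoietin ligands and receptors beside Kdr, 8 lay higher and 2 lower, with a median of 0.31. The co-receptor Nrp2 was the 1 gene at an unadjusted p under 0.05, and it was on the lower side, with a log2 fold change of -0.71 (edgeR adjusted p = 0.313). Of all genes, 5.83% were lower in that way. Nrp1 had -0.46, the ligand Vegfa 0.50 and Vegfd 0.85. The co-receptors lay on the other side of 0 from Kdr. Flt4, the receptor for lymphatic VEGF ligands, which sinusoidal endothelium also expresses, had 0.75 and was again lowest in vehicle replicates 3, 4 and 5, at 2.75 to 3.45 CPM against 8.04 and 15.6 CPM in vehicle replicates 2 and 1.

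Genes of continuous or large vessel endothelium, some of which rise when sinusoids lose their pores, lay higher in 11 of 11 tested. These genes ran from a log2 fold change of 0.018, close to 0, to 1.08, with a median of 0.35. At an unadjusted p under 0.05, 4 of them were higher, against 9.34% of all genes. Plvap, which forms the diaphragms of endothelial pores, measured 34.7 to 68.2 CPM with vehicle and 59.1 to 137 CPM after napabucasin (log2 fold change 0.93, SE 0.24, edgeR adjusted p = 0.201). Ly6a had 1.08, and the basement membrane collagens Col4a1 and Col4a2 had 0.77 and 0.53. These 4 did not share the low values of vehicle replicates 3, 4 and 5: Plvap was higher in vehicle replicate 4 than in vehicle replicates 1 and 2. Stellate cells also make Col4a1 and Col4a2. The defining stellate marker Pdgfrb lay higher in all napabucasin livers than in any vehicle liver (18.7 to 30.7 against 10.4 to 17.2 CPM), as 1.21% of all genes did. For the other defining stellate marker, Lrat, the groups overlapped, with values given below. The part of stellate cells in the collagen values, and of other cells in those of Ly6a, was not tested.

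Markers of the other cells that use these genes are given next; no gene of these lists passed the threshold, and their part in the results was not tested. Kupffer cell genes lay higher in 15 of 15, with a median of 0.65 and 3 at an unadjusted p under 0.05, against 9.34% of all genes higher in that way. Their summed levels were 523 to 2574 CPM with vehicle and 952 to 3298 CPM after napabucasin. Clec4f, a lectin found on Kupffer cells, measured 98.7 to 449 CPM with vehicle and 196 to 881 CPM after napabucasin, while Vsig4 spanned 18.4 to 108 and 37.4 to 164 CPM and Timd4 8.21 to 37.7 and 12.5 to 50.002 CPM. B cell genes, of interest for Fcgr2b, lay higher in 10 of 10, each at an unadjusted p under 0.05, against 9.34% of all genes. Their summed levels were 43.3 to 67.6 and 88.7 to 168 CPM. Cd79a spanned 2.15 to 5.28 and 5.61 to 13.2 CPM. The correlation of Fcgr2b with the B cell score was -0.24 over the 10 libraries. T cell genes lay higher in 10 of 10, with Cd3e at 0.171 to 1.97 and 0.811 to 5.95 CPM.

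Platelet genes, of interest for Pecam1, passed the filter in 4 of 8 and lay higher in those 4, with summed levels of 11.1 to 14.8 CPM with vehicle and 14.6 to 26.7 CPM after napabucasin. Pf4 spanned 1.08 to 1.88 and 1.64 to 3.79 CPM and Itga2b 2.15 to 5.64 and 4.31 to 10.2 CPM. Lymphatic markers were scarce: Pdpn did not pass the filter, at 0.169 to 0.646 CPM with vehicle and 0.0623 to 0.641 CPM after napabucasin, and Mmrn1 had a log2 fold change of -0.36. Ccl21a, a chemokine of lymphatic endothelium and lymphoid stroma whose near-identical copies can share reads, had 2.36, and Reln, which stellate cells also make, had 0.76. Stellate genes lay higher in 9 of 10, with Lrat at 9.60 to 26.7 and 16.9 to 73.8 CPM. Recruited myeloid genes lay higher in 7 of 9.

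Hepatocyte genes lay lower in 12 of 12, with a median of -0.41 and 3 at an unadjusted p under 0.05, against 5.83% of all genes lower in that way. The lowest hepatocyte scores were in napabucasin replicate 1 (-0.589) and vehicle replicate 2 (-0.499). Those livers had the highest scores of the 10 endothelial genes within their groups (0.801 and 0.512). Cholangiocyte genes had a median of -0.14 over 6, with Krt19 at 2.42 to 6.67 and 4.31 to 7.91 CPM. Counts in rRNA genes had their highest share in napabucasin replicates 1 and 2 and vehicle replicate 2 (0.912% to 1.09%, against 0.195% to 0.455% elsewhere). Without those 3 libraries the median of the 10 genes was 0.76, with 4 higher at an unadjusted p under 0.05, against 5.28% of all genes. Without the 2 with the highest mitochondrial share (19.0% and 19.9%) it was 0.73, with 5 against 7.44%. Without the library of each group with the lowest Kupffer score it was 0.85, with 6 against 11.1%.

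Outside the lists, the 8 genes whose group-centred log2 CPM was most like the mean of the 10 genes were Rsl1, Vsig2, Gimap8, Armcx1, Fut11, Pus7l, Rps12-ps4 and Fam117a, with Pearson correlations of 0.96 to 0.92 over 10 libraries, in a ranking of 13342 genes whose mean reached 1 CPM. The median over those genes was 0.0092. Gimap8, a GTPase of the immunity-associated family, measured 16.5 ± 6.43 CPM with vehicle and 25.4 ± 3.24 CPM after napabucasin (SD, n = 5 each). Fut11 had means of 9.26 and 8.81 CPM with vehicle and napabucasin. Of the pan-endothelial genes the one most like the 10 was Myct1, at 0.94, chosen after its values were seen.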

How the data were processed

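Whole-liver RNA was sequenced from 5 vehicle and 5 napabucasin mice, which the labels call biological replicates, and the groups were taken from the sample titles. The authors deposited raw, whole-number counts of reads for each gene. CASAVA, HISAT2 2.0.5 and featureCounts 1.5.0-p3 are named, with GRCm38 (mm10), per the submitters' processing notes; annotation release and strand setting: not given in the sources used here. The authors also deposited FPKM values, made from those counts and gene lengths with a size factor in the denominator, checked on the values; their group means were not used.

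The table holds 54532 genes, 26567 with a count above 0 and 14244 after filterByExpr. Testing used edgeR 4.0.16 under R 4.3.3 (TMM, robust quasi-likelihood F test, treatment as the only term), with Benjamini-Hochberg adjustment over all genes tested and a threshold of 0.05. The common biological coefficient of variation was 0.325. Standard errors are those implied by the F statistic. Scores use log2 CPM with a prior count of 2. The p-values cover only how these libraries vary among themselves; each held 14124484 to 17759967 counts.

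The members, the 15 other gene lists and the alternatives were chosen with earlier results of these data known. Named genes were all 10 members, the 4 with the smallest p in each other endothelial list, fixed defining markers, and the 8 genes most like the members. The lower genes of the other sinusoidal and pan-endothelial lists were named after seeing the data. Vehicle and napabucasin libraries with the same replicate number deviated together from their group means (correlations 0.154, 0.227, 0.208, 0.270 and 0.278). Of the 20 pairs with different numbers, 4 also exceeded 0.1: vehicle 1 with napabucasin 5 (0.281), 2 with 1 (0.241), 3 with 4 (0.168) and 5 with 4 (0.151). Each same-numbered value exceeds 0.1, so the replicate number was used as a block in an alternative fit, while the main fit uses no pairing. The block comes from these data alone, since the labels do not state a pairing. The largest of all the correlations was of a pair with different numbers, vehicle 1 with napabucasin 5. Alternatives were DESeq2 1.42.0, other normalizations and filters, the quasi-likelihood test without robust estimation, limma 3.58.1 (voom with quality weights, and log2(FPKM + 1) or log2(FPKM + 0.1) at a minimum mean of 0.5 FPKM, the former also without it), the replicate block and each library left out. Leaving out the libraries highest in rRNA genes, highest in mitochondrial counts or lowest in Kupffer score was added after seeing the data.

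The procedure was tested on simulated data of 14051 genes for napabucasin against vehicle. Among genes simulated with a 1.5-fold change edgeR called 1 of 49, and at 2-fold it called 15 of 50. At 4-fold it called 35 of 46 and at 8-fold 46 of 47. False calls numbered 5.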

Additional observations from a re-analysis of the deposited data

Results flagged for a closer look

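A library stood far from the other 4 of its group in 5 of 52 groups of 5 values examined, while 2.6 would arise by chance. Distance is measured as a ratio, that of the outermost gap to the whole span of the 5 values, and its critical value is 0.71. Mrc1 was high in vehicle replicate 2 (90.7 CPM against 40.3 to 50.3, ratio 0.802). Cdh5 was low in napabucasin replicate 5 (17.1 CPM against 43.2 to 53.8, ratio 0.712), and so was the Kupffer cell score (-1.07 against 0.540 to 0.808, ratio 0.857). The endothelial transcription factor score was high in napabucasin replicate 4 (0.473 against 0.130 to 0.197, ratio 0.805). The lymphatic score was low in napabucasin replicate 3 (-0.486 against 0.526 to 0.892, ratio 0.734). In vehicle livers the 2 high and 3 low values of Oit3, Fcgr2b, Kdr and Clec4g did not meet this criterion, which looks for 1 library apart.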

How the results depend on the processing

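The number of the 10 genes at an unadjusted p under 0.05, 4 with all libraries, was 8 by limma-voom with quality weights, 7 with the replicate block and 3 to 7 with 1 library left out (7 without vehicle replicate 2). The share of all genes called higher moved too, from 9.34% to 11.3%, 11.8% and, with 1 library left out, 5.88% to 11.3%. The causes were not tested. The count of the 10 genes was 4 or 5 under the other normalizations, filters and tests run. The share of all genes called higher ran there from 4.29% (limma on FPKM without the minimum) to 9.88% (library size only). The median log2 fold change, 0.66, was 0.54 to 0.97 with 1 library left out, 0.82 with the block and 1.00 by limma-voom. In adjusted p, edgeR's calls changed for 3 genes under limma-voom with quality weights, which called Kdr (1.72), Stab2 (1.00) and Pecam1 (0.94), and for no gene under the replicate block or any other alternative run. Only Lyve1 (0.12, up to 0.48 without vehicle replicate 2) changed sign, to -0.052 without vehicle replicate 3, -0.047 without vehicle replicate 4, -0.10 without napabucasin replicate 4 and -0.046 without napabucasin replicate 5. Fold sizes rested on single vehicle libraries: Fcgr2b, 0.34, was 0.14 without vehicle replicate 5 and 0.74 without vehicle replicate 1. Oit3, 0.65, was 0.42 without vehicle replicate 3 and 1.10 without vehicle replicate 1, and Clec4g, 0.51, was 0.30 without vehicle replicate 3 and 0.99 without vehicle replicate 2. In simulated data at this group size 15 of 50 genes changed 2-fold were called. Each gene was simulated independently there, while the 10 genes varied together, so the simulation gives no rate for them as a set. Why none of the 10 passed was not tested.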

Other observations

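Signals from hepatic endothelium to neighbouring cells, both secreted and membrane-bound, were also measured. Of 11 tested, 10 lay higher, with a median log2 fold change of 0.60, 1 at an unadjusted p under 0.05 and 0 past the threshold. With 9.34% of all genes called higher in that way, 1 of 11 is near the background. Rspo3, a factor of central vein endothelium that strengthens Wnt signals to pericentral hepatocytes, measured 4.62, 1.84, 3.62, 2.87 and 3.30 CPM with vehicle and 3.30, 2.81, 10.3, 10.5 and 7.87 CPM after napabucasin (log2 fold change 1.11, edgeR adjusted p = 0.259). Napabucasin replicates 3, 4 and 5 lay above every vehicle liver and replicates 1 and 2 within the vehicle range. Wnt9b, a Wnt ligand of the same endothelium, measured 1.88, 0.551, 0.497, 0.281 and 0.431 CPM with vehicle and 0.499, 0.271, 4.70, 0.588 and 2.33 CPM after napabucasin, with the 2 highest values in napabucasin replicates 3 and 5. This order was noticed after the values were seen, and in none of the other 9 tested did napabucasin replicates 3, 4 and 5 all lie above replicates 1 and 2. Among the 10 scavenger and junction genes, Mrc1, Stab2 and Cdh5 had their highest napabucasin values in replicates 1 and 2. The membrane-bound Notch ligand Dll4 and ephrin Efnb2, both of arterial and periportal endothelium, had log2 fold changes of 0.66 and 0.65.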
